A study of Caenorhabditis elegans with 2 samples.

Results

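The 413 peaks described here are the optimal peaks of RNA polymerase II that ranked high in replicate 2 of the study and not in replicate 1. They are 13.5% of all optimal peaks, which number about 3050 (to the nearest 10). They were chosen by their signal ranks. A region counts as strong in a replicate where its signal ranks within the top of that replicate's list, down to a limit equal to the number of optimal peaks. A member has a strong replicate 2 summit within 200 bp of its own summit and no strong replicate 1 summit there. The other optimal peaks fall into 1070 that were strong in replicate 1 only, 1413 strong in both replicates and 156 strong in neither. Of the 413 members, 176 (42.6%) had their summit at the 3′ end of a protein-coding gene and 77 (18.6%) at the junction of tandem genes, against 34.9% and 12.2% of all optimal peaks. Of the 44 transfer RNA (tRNA) genes with an optimal peak at their 5′ end, 17 had a member there and 20 a peak strong in both replicates, and over all noncoding genes other than those of piRNAs 18.3% of those with an optimal peak had a member.

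The study was a chromatin immunoprecipitation with sequencing (ChIP-seq) of AMA-1, the biggest of the polymerase II subunits, with whole animals of the Caenorhabditis elegans strain N2 at the larval stage L3. There were 2 biological replicates, of mixed sex, and no other group, so no condition could be compared. The labels give fragments of 150 to 350 bp and name a control experiment, which was not analysed here. The authors deposited a ranked list of regions for each replicate and for the pooled reads, and an optimal list that passed their test of irreproducible discovery rate (IDR), which asks whether peaks hold their rank between replicates. The optimal summits and regions come from the pooled reads. Whole larvae mix all tissues, so fewer cells that use a gene and less polymerase per cell cannot be told apart.

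RNA polymerase II transcribes protein-coding genes, most small nuclear RNA (snRNA) genes and microRNA (miRNA) genes, whereas tRNA genes are transcribed by RNA polymerase III. Along a coding gene, polymerase can gather near the start before elongation, and again past the polyadenylation site, where it slows before termination. In C. elegans many neighbouring genes on one strand form operons, whose common transcript is cut into single messenger RNAs. The downstream messenger RNA of an operon then receives the SL2 spliced leader by trans-splicing, so an operon's internal gap holds the 3′ end of one gene close to the 5′ end of the next.

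The regions below show the DNA under 5 of the members with the best replicate 2 ranks, of which 1 lies in an intron, 2 at snRNA genes and 2 between tandem genes. The sequences are from the RefSeq assembly WBcel235, which is ce11, and each runs 5′ to 3′ on the strand given. Capitals mark the polyadenylation signal AATAAA and the motif TATAAA on either strand. They also mark the motif GAGAGA, the GATA motif written GATAAG, and the GC box motif written GGCGGG. Hits may overlap, and they describe letters and not bound factors. The ckk-1 stretch surrounds an intronic summit at chrIII:5653756-5653955 (plus strand), where it overlaps the snoRNA gene C05H8.3, and the T08G5.11 stretch holds an snRNA gene edge at chrV:14028535-14028734 (plus strand). The C47F8.9 stretch, at chrII:13829311-13829510 (plus strand), overlaps that snRNA gene. The pyp-1/uba-1 stretch lies between tandem genes at chrIV:9995144-9995343 (minus strand), and so does the gpd-2/gpd-3 stretch at chrX:3113342-3113425 (minus strand).
ckk-1: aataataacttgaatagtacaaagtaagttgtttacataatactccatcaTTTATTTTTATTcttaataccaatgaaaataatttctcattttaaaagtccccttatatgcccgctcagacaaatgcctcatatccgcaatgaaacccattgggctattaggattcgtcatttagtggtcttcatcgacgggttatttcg
T08G5.11: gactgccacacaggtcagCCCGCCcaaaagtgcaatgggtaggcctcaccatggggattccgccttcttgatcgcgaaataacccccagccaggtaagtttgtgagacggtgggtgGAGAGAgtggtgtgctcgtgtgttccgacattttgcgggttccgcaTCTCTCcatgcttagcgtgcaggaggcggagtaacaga
C47F8.9: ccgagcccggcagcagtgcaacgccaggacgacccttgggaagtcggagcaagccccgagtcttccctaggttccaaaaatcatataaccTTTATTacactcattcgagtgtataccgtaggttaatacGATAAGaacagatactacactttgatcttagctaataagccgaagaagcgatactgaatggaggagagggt
pyp-1/uba-1: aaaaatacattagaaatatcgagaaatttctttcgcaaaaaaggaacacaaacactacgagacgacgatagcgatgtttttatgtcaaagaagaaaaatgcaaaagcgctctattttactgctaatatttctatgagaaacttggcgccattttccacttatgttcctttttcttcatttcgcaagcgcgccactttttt
gpd-2/gpd-3: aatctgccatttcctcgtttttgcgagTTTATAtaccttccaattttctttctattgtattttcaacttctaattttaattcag
The gpd-2/gpd-3 stretch runs up to the annotated 5′ end of gpd-3 and ends in attcag, the form of a splice acceptor. The pyp-1/uba-1 stretch lies inside its gap and holds none of the motifs. Over all members, the windows of 200 bp around the summit held AATAAA on either strand in 27.4%, against 25% of all optimal peaks, and GAGAGA in 27.8%, against 27.2%. TATAAA was in 13.6% and 11.9%, GATAAG in 6.78% and 8.45%, and GGCGGG in 6.3% and 6.26%. TTTTCAG, the core of a splice acceptor, was found in 14% of the member windows and in 13.9% of all. GC content averaged 42.9 ± 6.19% over the member windows (SD over the 413) and 42.97 ± 5.82% over all optimal windows (SD). In letters and composition, then, the member windows lay close to the full list.

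The ranks that chose the members are given here as a description only. In replicate 2 the members ranked 68 to 3032 by signal, with a median of 1210, and 68 of them were among its 500 strongest regions. In replicate 1, 394 members had a region within 200 bp, at ranks from 3053 to 24476 and with a median of 4279. Of these, 308 stood at up to 2 times the limit, 86 past that and 20 past rank 10000. The remaining 19 had no replicate 1 region within 200 bp. Most members were thus also listed in replicate 1, a short way past the limit. In the pooled list they ranked from 371 down to the last optimal peak, with a median of 2360, and 373 of them (90.3%) belonged to the weaker 50% of the optimal peaks, compared with 711 of the 1070 peaks strong in replicate 1 only. The lists deposited for the replicates differ in their signal scale: the rank limit stood at a signal of 20.99 in replicate 2 and 42.6 in replicate 1. Signal values are the authors' own, their scale is not given in the sources used here, and each was compared only within its list.

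**Figure D1:**
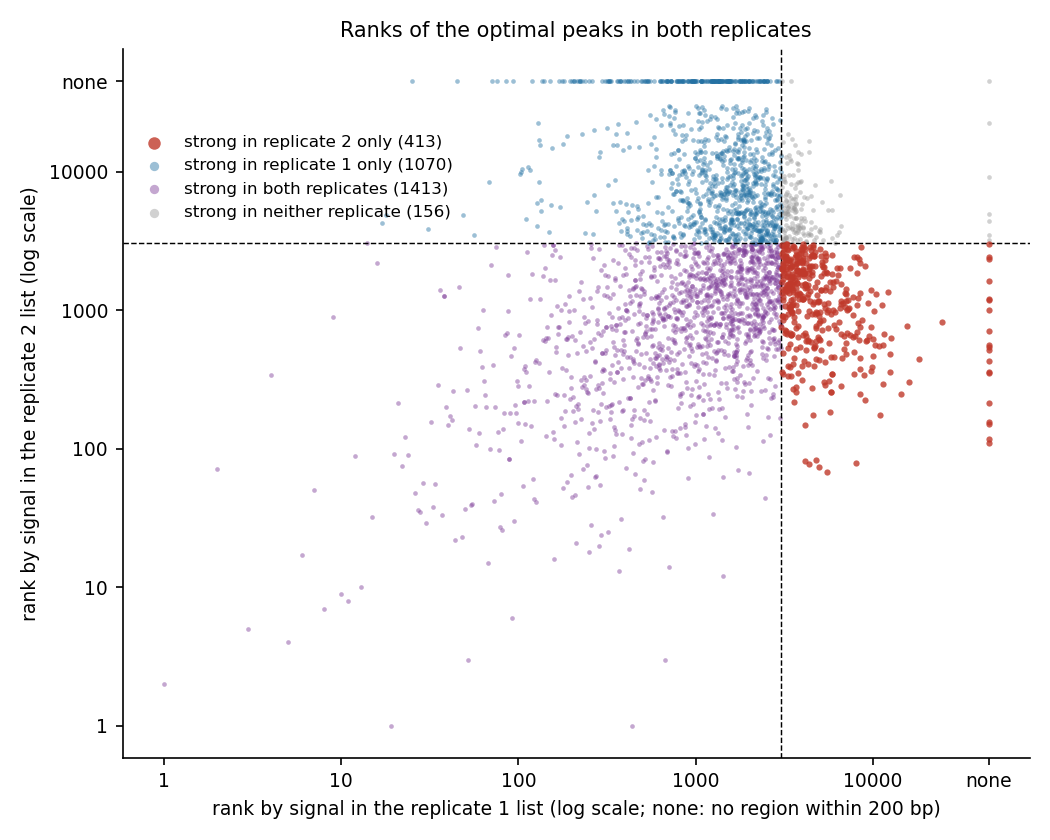
Each point is 1 optimal peak, at the rank of its matched region in the replicate 1 list (x axis, log scale) and in the replicate 2 list (y axis, log scale), where rank 1 has the highest signal. Dashed lines mark the rank limits. The 413 members (red) fill the lower right, with a median rank of 1210 in replicate 2 and of 4279 in replicate 1, and the 19 with no replicate 1 region within 200 bp stand at "none".

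Some members had a strong replicate 1 summit just past the matching distance. For 22 members a strong replicate 1 summit stood over 200 and up to 300 bp away. This was so for 15 of the 100 members with the best replicate 2 ranks. It was also so for 9 of the 19 without a replicate 1 region within 200 bp. Within 1000 bp the number was 96 members, and for 172 members the nearest strong replicate 1 summit was over 5000 bp away. At the limit in replicate 1, the members nearest to it ranked 3053, at F09E5.7 and the 3′ end of F09E5.8, and 3063, inside the mitophagy receptor gene dct-1. Just outside stood peaks at ranks 3049, at the 3′ end of F13E6.1, and 3048, inside the protein disulfide isomerase gene pdi-2. At the limit in replicate 2, members ranked 3032, at the 5′ ends of W03F9.2 and sftb-2, and 3006, inside the forkhead gene fkh-7. Peaks at erh-1 and lpd-9 (rank 3053) and in Y54G2A.11 (rank 3061) fell just outside.

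The member with the best replicate 2 rank, 68, lay 101 bp past the 3′ end of nlp-4, a neuropeptide-like gene. Its signal was 99.7 in replicate 2, where the rank limit stood at 20.99. In replicate 1, on another scale, it was 31.7, where the limit stood at 42.6, and the rank was 5535. The snoRNA gene F59C6.15 starts 70 bp from this summit, and a strong replicate 1 summit lay 268 bp away. The second, in a coding exon of icl-1, which encodes the enzymes of the glyoxylate cycle, ranked 74 in replicate 2 and 4982 in replicate 1. Its deposited region of 3409 bp was far wider than the usual 320 bp, and a strong replicate 1 summit lay 517 bp away, inside that region. The third, in an intron of the calcium/calmodulin-dependent kinase kinase gene ckk-1, ranked 77 and 4348. It sat 708 bp from the 3′ end of ckk-1 and 112 bp downstream of the 5′ end of the snoRNA gene C05H8.3. The nearest strong replicate 1 summit was 25260 bp away. Of these 3 leading members, 2 lay at or near small RNA genes and none was at a coding 5′ end, which says little with 3 peaks. Over all members, 20.3% stood at the 5′ end of a noncoding gene other than a piRNA gene, against 17.2% of all optimal peaks. At a coding 5′ end the shares were 38.7% and 36.8%.

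Other leading members sat at genes of central metabolism. A summit 6 bp before gpd-3 and 96 bp beyond the end of gpd-2, which encode glyceraldehyde-3-phosphate dehydrogenase and belong to 1 operon, ranked 110 in replicate 2 and had no replicate 1 region within 200 bp. Here a strong replicate 1 summit lay 203 bp away. The member 8 bp past the 3′ end of aco-2, the mitochondrial aconitase, ranked 185 in replicate 2 and 5714 in replicate 1, and its nearest strong replicate 1 summit was 2499 bp away. The fumarase gene fum-1 had a member 67 bp past its 5′ end, at ranks 247 and 14354. That member's summit was at III:7465672, whereas the matched replicate 2 summit was at III:7465474, upstream of fum-1 and just inside the matching distance. The pyruvate carboxylase gene pyc-1 had one in an exon, at ranks 257 and 3706. The carbonic anhydrase gene cah-4 had one in an exon too, at rank 117 in replicate 2, with no replicate 1 region within 200 bp and a strong replicate 1 summit 229 bp away. There the member's summit was at X:13543248 and the matched replicate 2 summit at X:13543105. A strong replicate 1 summit within 300 bp was thus present at gpd-2/gpd-3, cah-4 and fum-1 (211 bp) and absent at aco-2 and pyc-1.

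The gene ends of cysl-2, a cysteine synthase-like gene, and vnut-1, which converge, shared a member 109 bp past the end of cysl-2, at rank 151 in replicate 2 and pooled rank 458. The non-canonical poly(A) polymerase gene tent-5 had one 93 bp past its 3′ end, at ranks 215 in replicate 2 and 679 pooled. Both had no replicate 1 region within 200 bp, and strong replicate 1 summits lay 235 bp and 202 bp away. The 3′ ends of ttr-44, a transthyretin-related gene, and R11G10.3 shared a summit that ranked 225 in replicate 2 and 9047 in replicate 1, and the nearest strong replicate 1 summit was 36004 bp away. F46C5.1 had a member 345 bp before its 3′ end at rank 156 and C34B4.2 had one in an exon at rank 249. Strong replicate 1 summits lay 206 bp and 212 bp from these members, just past the matching distance. At F46C5.1 the member's summit was at II:8820498, in a deposited region of only 126 bp. The matched replicate 2 summit, at II:8820329, lay outside that region. The members at II:10556129 (rank 148) and III:6344914 (rank 216) had no coding gene end within 1000 bp, the nearest being those of mnk-1 at 1085 bp and trmt-10C.2 at 1367 bp.

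The member with the best pooled rank, 371, lay 288 bp inside hsp-1, which encodes a constitutive Hsp70 chaperone. Its rank in replicate 2 was 712, a replicate 1 region within 200 bp was absent, and a strong replicate 1 summit lay 202 bp away. The other members among the 10 with the best pooled ranks were those at cysl-2, ckk-1 (567), pyp-1 and uba-1 (586), C47F8.9 (633), icl-1 (670), tent-5, III:6344914 (832), the DNA repair nuclease gene ercc-1 (883) and the kinase gene mnk-1 (930). Of these 10, the summits at hsp-1, cysl-2, tent-5 and mnk-1 had no replicate 1 region within 200 bp, with a strong replicate 1 summit 202 to 238 bp away. Only 2 members were among the 500 strongest pooled peaks, and 11 were among the 1000 strongest.

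Position relative to genes was not used by the rule. A summit was counted at a gene end when it lay within 500 bp of it, on either side. The summit was at a protein-coding 3′ end in 176 of 413 members, or 42.6% (exact Clopper-Pearson 95% interval 37.8 to 47.5, which covers counting error only). The same share was 28.2% (25.5 to 31.03) of the peaks strong in replicate 1 only, 39.1% (36.6 to 41.7) of those strong in both, 21.8% (15.6 to 29.1) of those strong in neither and 34.9% (33.2 to 36.6) of all optimal peaks. The interval of the members lay above that of the peaks strong in replicate 1 only and overlapped that of the peaks strong in both. With 1 group of 2 replicates the difference itself was not tested over samples. The shares at a 5′ end stood closer together: 38.7% (34.02 to 43.6) of members, 31.96% (29.2 to 34.9) of the peaks strong in replicate 1 only, 39.7% (37.1 to 42.3) of those strong in both and 36.8% (35.1 to 38.5) of all.

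Members are weaker than most optimal peaks in the pooled list, so the shares were also taken within the weaker 50% of the optimal peaks, by pooled signal. This was chosen after the data were seen. There, 41.3% (36.2 to 46.5) of 373 members had the summit at a 3′ end, against 26.3% (23.1 to 29.7) of 711 peaks strong in replicate 1 only, 33.7% (28.2 to 39.5) of 288 strong in both and 30.9% (28.6 to 33.3) of all of them. The share of members was about as large within the weaker peaks as over the whole list. Among the stronger 50% there were only 40 members, and 55% (38.5 to 70.7) of them lay at a 3′ end.

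A summit can be at a 5′ and a 3′ end at the same time, and these 89 members were 21.5% (17.7 to 25.8) of the 413. They made up 10.5% (8.70 to 12.5) of the peaks strong in replicate 1 only, 17.8% (15.9 to 19.9) of those strong in both and 15.2% (13.9 to 16.5) of all. Members at a 3′ end alone were 87 (21.1%), near the 19.7% over all, and members at a 5′ end alone were 71 (17.2%), against 21.6% over all. The larger 3′ share of the members compared with all optimal peaks thus sat mainly in the summits that were at both kinds of end. Away from gene ends, 81 members (19.6%) lay in introns, 45 (10.9%) in exons and 40 (9.69%) between genes, against 16.5%, 12.3% and 14.7% of all optimal peaks. The 126 members inside a gene and away from its ends had hosts with a median length of 8679.5 bp, against 6765 bp for peaks strong in replicate 1 only and 7080.5 bp over all.

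**Figure D2:**
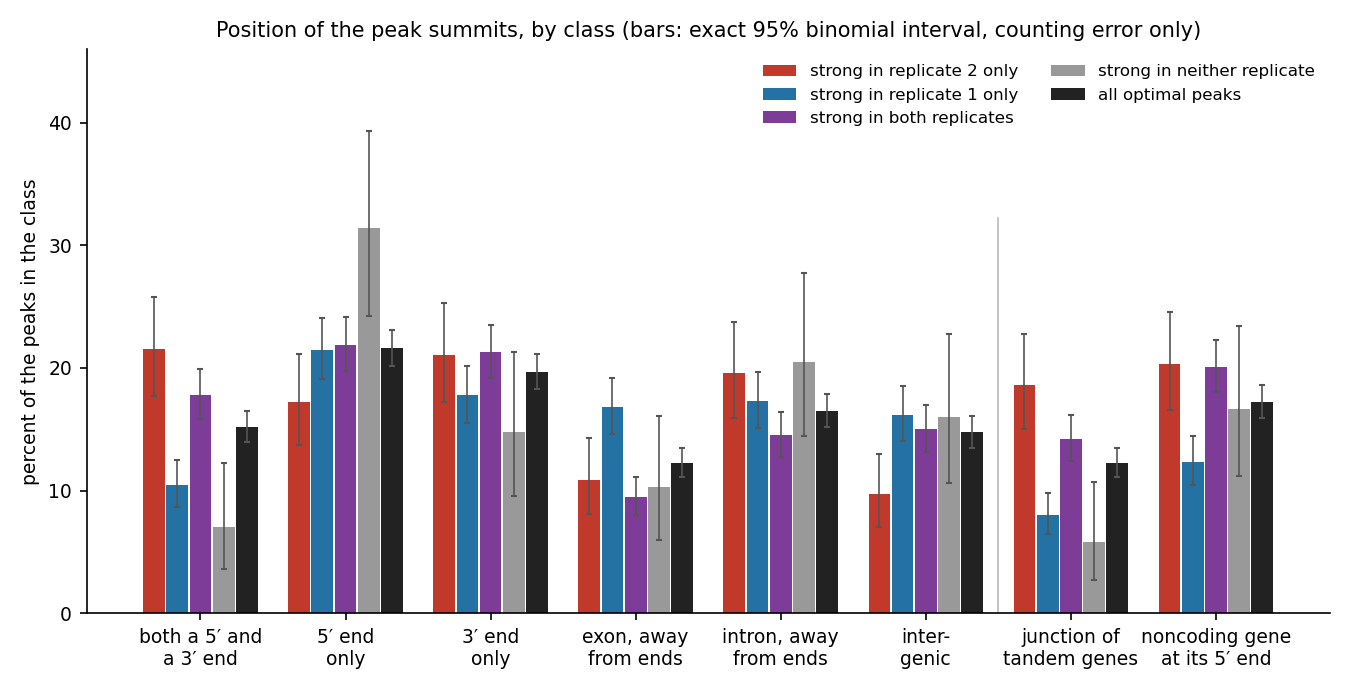
The bars give the percent of peaks in each class (y axis) whose summit fell in each position (x axis), with exact 95% binomial intervals. The 6 positions left of the grey line are exclusive, and the 2 right of it overlap with them. The members (red) lay at a junction of tandem genes in 18.6%, against 8.04% of the peaks strong in replicate 1 only (blue) and 12.2% of all optimal peaks (black).

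Tandem genes here lie on the same strand, with the 3′ end of the upstream gene before the 5′ end of the downstream gene. They were not required to be immediate neighbours, so another gene could lie at the same place. A summit was counted at their junction where it lay within 500 bp of both these ends, in the gap or outside it. There were 77 members (18.6%, 15 to 22.7) in this position, against 86 (8.04%, 6.48 to 9.83) of the peaks strong in replicate 1 only, 14.2% (12.4 to 16.2) of those strong in both, 5.77% (2.67 to 10.7) of those strong in neither and 12.2% (11.1 to 13.4) of all. The summit lay in the gap itself for 38 members (9.20% of 413, 6.59 to 12.4), against 3.55% (2.52 to 4.84) of the peaks strong in replicate 1 only and 6.19% (5.36 to 7.11) of all. In 69 of the 77 the genes were at most 500 bp apart, close to the 325 of 373 junction peaks in the whole optimal list. Among peaks strong in replicate 1 only the count was 75 of 86. In 42 of the 77 the gap was at most 200 bp, the spacing usual inside operons, a count not taken for the other classes. The median gap was 172 bp for members and 207 bp for all such peaks. Of these 69 gaps, 21 (30.4%) ended in TTTCAG, the splice acceptor core, directly before the downstream gene, against 16 of 75 (21.3%) for peaks strong in replicate 1 only and 77 of 325 (23.7%) for all. Whether each pair is an operon was not looked up.

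The strongest tandem members in replicate 2 were pyp-1, inorganic pyrophosphatase, before uba-1, the ubiquitin-activating enzyme (gap 439 bp, ranks 81 and 4129 in replicates 2 and 1), and gpd-2 before gpd-3 (gap 101 bp). H14A12.3 before fum-1 followed (gap 360 bp), then hpo-28 before the ribosomal protein gene rpl-23 (gap 589 bp, ranks 295 and 11426). At epic-1 before F11E6.4 the gap was 159 bp and the ranks were 336 and 3324. At the histone H3 variant gene his-72 before Y75B8A.33 the gap was 101 bp and the ranks were 337 and 3473. pges-2 before the deacetylase gene sir-2.1 had a gap of 103 bp and ranks 345 and 5879. These last examples were chosen for their replicate 2 rank after the values were seen. The weakest replicate 1 rank of the members with one, 24476, was at F08H9.4 and F08H9.3, which are 181 bp apart, with the summit 277 bp past the 3′ end of F08H9.4 and 95 bp inside F08H9.3. That summit also lay inside the snRNA gene F08H9.10, 109 bp from its 5′ end. Values at snRNA genes are uncertain, because reads from near-identical copies could be placed at any of them.

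The 176 summits at a 3′ end lay mostly past it. In gene direction 146 were downstream, 103 of them by 100 to 300 bp, and the median was 158 bp downstream (quartiles 94.8 and 250 bp). The median was 151 bp for peaks strong in replicate 1 only (quartiles -198 and 271 bp), of which more lay inside the gene, and 161 bp for peaks strong in both (quartiles 77 and 242 bp). At 5′ ends 88 of 160 member summits were upstream, with a median of 40.5 bp upstream, whereas the median was 65.5 bp upstream for peaks strong in replicate 1 only and 75 bp upstream for peaks strong in both. In this species the annotated 5′ end is often a trans-splice site, so the start of transcription may lie further upstream.

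**Figure D3:**
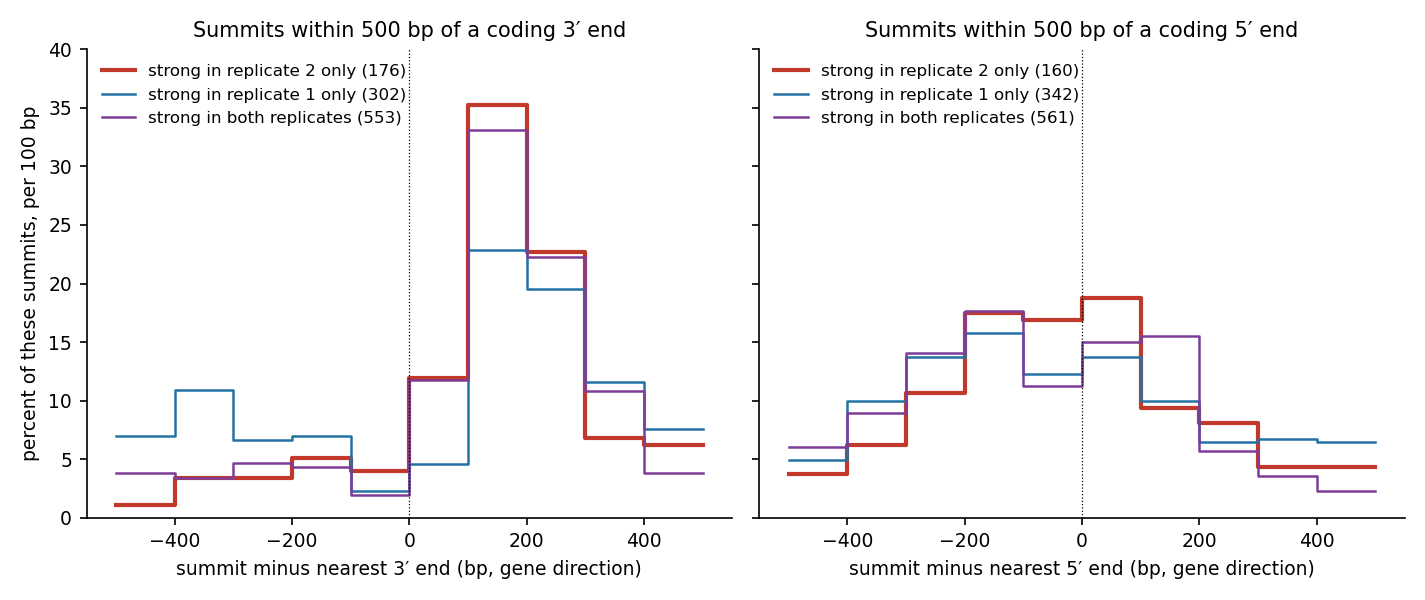
Each line gives the percent of summits (y axis) per 100 bp of distance from the nearest protein-coding 3′ end (left) or 5′ end (right), in gene direction, for the class named. Member summits at 3′ ends (red, 176) peaked past the end, with a median of 158 bp, and those at 5′ ends (160) centred near it, at a median of -40.5 bp.

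By gene, 186 of 19973 protein-coding genes (0.931%) had a member at the 5′ end and 214 (1.07%) had one at the 3′ end. In all 380 genes (1.9%) had one at either end. Of the 1213 genes with any optimal summit at the 5′ end, the 186 were 15.3%. Of the 1161 genes with any at the 3′ end, the 214 were 18.4%. These are the shares against which the counts of gene groups stand. The groups overlap, and a gene can count for several classes of peak. Members at a 3′ end were mostly on genes with no optimal peak at the start: of 165 such genes over 1000 bp long, 41 (24.8%) also had an optimal summit at their own 5′ end, against 32.1% for all optimal peaks at 3′ ends. At 25 of the 41 genes that summit was strong in both replicates. The cathepsin gene cpz-1 showed this, with a 3′ member at ranks 286 and 6628 in replicates 2 and 1 and a 5′ summit at ranks 27 and 79. At the cytochrome c oxidase gene cox-5B the 3′ member ranked 305 and 5326 and the 5′ summit 381 and 176. At aco-2 the 5′ summit ranked 316 and 517. These 3 genes were chosen after the values were seen. At each, the start of the gene was strong in both replicates, and the 3′ member was strong in replicate 2 alone. At cox-5B, however, a strong replicate 1 summit lay 217 bp from the 3′ member, so that gene end was near a strong summit in both replicates. The nearest lay 2562 bp from the 3′ member at cpz-1 and 2499 bp at aco-2.

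Ribosomal protein genes held the most members of the 36 gene lists. Of 81 genes, 17 (21%) had a member at either end. At the 5′ end there were members at 11 of the 49 genes with an optimal summit (22.4%, against 15.3% for all genes), while peaks strong in replicate 1 only were at 4 (8.16%, against 30.7%) and peaks strong in both at 33 (67.3%). At the 3′ end there were members at 8 of 17 (47.1%, against 18.4%). The 4 members at a 5′ end with the best replicate 2 ranks were at rpl-23, rps-4, rla-1 and rps-0. At rps-4 the summit 233 bp before the gene ranked 530 and 4681 in replicates 2 and 1, and another member 277 bp past its 3′ end ranked 358 and 12512. At rla-1, a ribosomal stalk protein gene, 1 summit 138 bp inside the gene counted at both ends, at ranks 776 and 15512. The summit 286 bp before rps-0 ranked 806 and 4990.

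Other genes of basic metabolism followed with smaller counts. Of 69 genes of oxidative phosphorylation, 3 of the 20 with a 5′ summit had a member there and 4 of the 15 with a 3′ summit. The 5′ members stood at asb-2 (ranks 746 and 5559 in replicates 2 and 1) and atp-4 (903 and 3133), of the ATP synthase, and at cox-4 (1142 and 4881), of cytochrome c oxidase. In glycolysis 2 of 8 genes with a 3′ summit had a member: gpd-2, and the triose phosphate isomerase gene tpi-1, 136 bp past its end and 43 bp inside cyn-16, at ranks 426 and 5397. Of the aminoacyl-tRNA synthetase genes, ears-2 and rars-1 had a member at the 5′ end and fars-3 at the 3′ end, of 32. Of the tricarboxylic acid and glyoxylate cycle genes only fum-1 (5′) and aco-2 (3′) did, of 30. The vacuolar ATPase had vha-11 (5′) and vha-16 (3′), of 21. The proteasome had pbs-3 (5′) and pbs-5 and rpn-11 (3′), of 33. Small counts such as these cannot be set apart from the share over all genes.

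The list of membrane transport and secretion, with 126 genes, had members at 5 of the 24 5′ ends with a summit (20.8%, against 15.3% over all genes) and at 3 of the 19 3′ ends (15.8%, against 18.4%). The translocon genes sec-61.B and trap-3, which diverge, shared 1 summit at ranks 304 and 16063 in replicates 2 and 1. The TRAP complex genes trap-2 (681 and 7172) and trap-1 (1453 and 3441) and the coatomer gene copb-1 (1398 and 5125) had 1 each. Of the chaperone list, hsp-1, cyn-16 and dnj-8 were the 3 of 25 with a 5′ member. The ubiquitin list had uba-1, ubq-2 (ranks 601 and 4191) and ubc-12 (2473 and 3260), 3 of 14. Of genes for neuronal function, daf-19 (375 and 8511), an RFX factor of ciliated neurons, aex-1 (1566 and 3401) and ida-1 (2295 and 3338) were 3 of 7. For transcription and transcript ends, suf-1 (649 and 7938) and pcf-11 (1187 and 3096), of cleavage and polyadenylation, were 2 of 13.

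The cuticle is remade at each moult. Of the list of 181 cuticle collagen names, col-166 (ranks 449 and 3579 in replicates 2 and 1), col-94 (1133 and 9418) and col-38 (1165 and 4884) were the 3 of 20 with a 5′ member (15%, against 15.3% over all genes). The summit before col-38 also lies before rpl-5. Of the 28 with a 3′ summit, dpy-4 (353 and 3803) had a member, and so did dpy-18, a prolyl hydroxylase gene that the list's name pattern takes in (982 and 3789). Of the list of cuticle furrow and body shape enzymes, dpy-18 and pdi-2, a protein disulfide isomerase gene (1111 and 3547), were 2 of the 5 with a 3′ summit. Of moulting and apical matrix genes only ptr-14 of 10 had one at the 5′ end. Among regulators, nhr-88 was the only 1 of 14 nuclear hormone receptor genes with a 5′ member, and nhr-47, nhr-19 and nhr-66 had 3′ members, of 8. Homeobox and other developmental factors had 0 of 8 at the 5′ end and 4 of 17 at the 3′ end: elt-3, a GATA factor of the epidermis, lsy-22, ceh-60 and ets-4, of which the last 2 share a summit. Over all genes with a 3′ summit, 18.4% had a member there. The 3′ counts of these lists are small and were not tested against that share. Single 5′ members in other lists were mcm-7, of the replicative helicase, tbb-1, a beta tubulin, hrpu-2, of the splicing list, bath-44, and spp-5, a saposin-like gene of the intestine.

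No gene of the lists for translation initiation factors (3 with a 5′ summit), translation elongation factors (5), glutathione S-transferases (5), cytochrome P450 and UGT (0), heterochronic genes (3), germline proliferation and meiosis (5) and dosage compensation (2) had a member at either end. With so few genes carrying a summit, a count of 0 says little. The ama-1 gene, which encodes the precipitated subunit, had no optimal summit in it or within 500 bp.

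Few genes held more than 1 member. Of the 487 genes with a member inside or at an end, 451 had 1, 32 had 2 and 4 (0.821%) had 3. For peaks strong in replicate 1 only, a class of more peaks, 59 of 867 genes (6.81%) had 3 or more. In egl-9, the prolyl hydroxylase that marks the hypoxia factor for destruction, the 3 summits lay 871, 2878 and 7749 bp from the 5′ end, at replicate 2 ranks 575, 428 and 1002 and replicate 1 ranks 3404, 4109 and 6002. In lin-14, the heterochronic gene that sets the first larval stage and is repressed by lin-4, they lay 1892, 12612 and 17980 bp from the 5′ end of a gene of 20312 bp, at replicate 2 ranks 1572, 2004 and 2438. The replicate 1 ranks in lin-14 were 3743, 3224 and 3195, all close to the limit. In gei-4 (replicate 2 ranks 1833, 680 and 979) the replicate 1 ranks were 3514, 3507 and 3510, and in dmd-6, a gene of the DM domain family (1327, 2116 and 1659), they were 3358, 3098 and 3636. Another optimal summit lay within 1000 bp for 99 members (24.0%, 19.9 to 28.4), against 43.6% (40.6 to 46.6) of peaks strong in replicate 1 only, 43.4% (40.8 to 46.01) of those strong in both and 39.5% (37.8 to 41.3) of all. For the peaks strong in neither replicate the share was 18.6% (12.8 to 25.6). A low share was therefore not particular to the members.

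Noncoding genes were counted at their 5′ end. Of 710 such genes with an optimal summit, other than those of piRNAs, 130 (18.3%) had a member, against 169 (23.8%) with a peak strong in replicate 1 only. By peak, 84 members (20.3%, 16.6 to 24.6) stood at such a gene, against 12.3% (10.4 to 14.5) of the peaks strong in replicate 1 only, 20.1% (18.04 to 22.3) of those strong in both and 17.2% (15.9 to 18.6) of all. The order of classes differed by the kind of gene. Members were at 17 of 44 tRNA genes (38.6%) and 9 of 30 snRNA genes (30%), peaks strong in replicate 1 only at 7 (15.9%) and 1 (3.33%), and those strong in both at 20 (45.5%) and 21 (70%). Among miRNA genes members were at 8 of 41 (19.5%) and peaks strong in replicate 1 only at 13 (31.7%). Among snoRNA genes the counts were 16 and 17 of 98. Since 1 peak can cover several genes, the 17 tRNA genes lay at 14 members, the 8 miRNA genes at 4, and 37 of 141 piRNA genes at 13. Counts over genes are therefore not independent, and the differences were not tested.

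**Figure D4:**
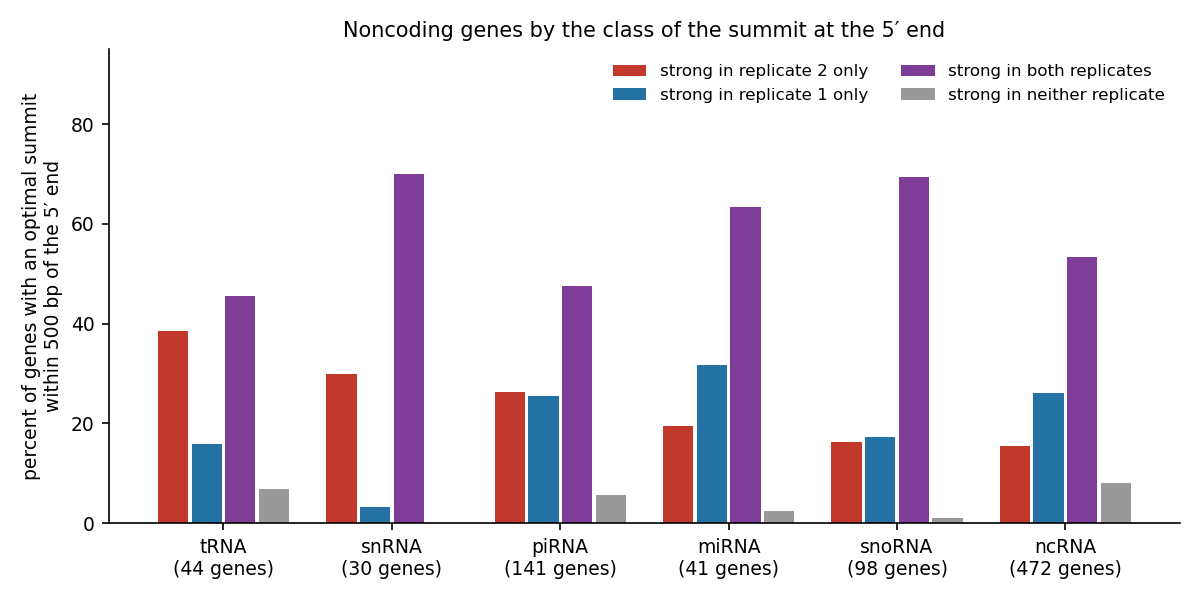
For each kind of noncoding gene (x axis, with the number of genes that have an optimal summit within 500 bp of the 5′ end), the bars give the percent of those genes (y axis) with a summit of the class named. A gene can count in several classes. Members (red) stood at 38.6% of tRNA and 30% of snRNA genes, and peaks strong in replicate 1 only (blue) at 15.9% and 3.33%.

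The 5 snRNA genes with the best replicate 2 ranks were T08G5.11 (ranks 79 and 8093 in replicates 2 and 1), C47F8.9 (83 and 4814), sls-2.9 (174 and 4600), F08G2.11 (176 and 10992) and F42C5.12 (441 and 5003). The summit at T08G5.11 stood 1 bp before the gene, those at the others 27 to 184 bp past the 5′ end. The last 2 of these genes were chosen after their values were seen. An SL2 spliced leader RNA is encoded by sls-2.9. The annotation used here gives the other 4 no role. The name C47F8.9 is carried by 7 snRNA genes, and reads from near-identical copies could be placed at any of them, so values at snRNA and tRNA genes are uncertain. The surroundings of these genes differ: T08G5.11 and C47F8.9 lay between coding genes, F08G2.11 in an intron of F08G2.8, and sls-2.9 past the converging 3′ ends of top-1, DNA topoisomerase I, and sepa-1. T08G5.11 had a strong replicate 1 summit 226 bp away, whereas the nearest for C47F8.9 was 5014 bp, for F08G2.11 18426 bp and for sls-2.9 39382 bp away. Other noncoding genes at the same summits were the snoRNA genes F59C6.15 and C05H8.3 and the ncRNA genes F59C6.19, C05H8.4, T08G5.18, R05D7.8 and M01E5.8.

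A lysine tRNA gene, M01E5.t1, shared the summit of sls-2.9, 196 bp upstream of the tRNA gene. The phenylalanine tRNA gene C06G4.t1 had a member 139 bp upstream at ranks 287 and 5342 in replicates 2 and 1, with no coding gene end nearby. A pair of phenylalanine tRNA genes, F22B7.t3 and F22B7.t4, shared a member inside F22B7.9, at rank 361 in replicate 2. It had no replicate 1 region within 200 bp, but a strong replicate 1 summit lay 203 bp away. The member's summit was at III:8653242 and the matched replicate 2 summit at III:8653081. The remaining 13 were genes for arginine, histidine, proline, asparagine, isoleucine, methionine, valine and lysine tRNAs, at replicate 2 ranks from 558 to 2886. For 9 of the 17 genes the summit lay inside an annotated protein-coding gene. RefSeq gave the amino acids. Short genes such as these lie close to others, and the summit was not assigned to one of them.

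The miRNA genes with a member included lin-4, mir-45 and the mir-42, mir-43 and mir-44 cluster. The mature sequences below, from RefSeq on WBcel235 and written with T for U, show which of them share a seed (bases 2 to 8, in capitals).
lin-4, product a: tCCCTGAGacctcaagtgtga
mir-44, product b: tGACTAGAgacacattcagct
mir-45, product b: tGACTAGAgacacattcagct
The product b of mir-44 and of mir-45 is the same sequence from separate loci, and each locus had a member of its own. The summit at mir-45 stood 10 bp before the gene, near the 3′ end of top-2, at ranks 457 and 5829 in replicates 2 and 1. That at the mir-42 cluster stood 6 bp before mir-42, at ranks 1869 and 3989. At lin-4, which represses lin-14 as larvae pass the first stage, the summit stood 121 bp before the gene and inside F59G1.4, at ranks 2094 and 3508 and with a pooled rank of 3040.

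By chromosome, 45 members (10.9%, 8.06 to 14.3) lay on the X chromosome, against 17.8% (15.5 to 20.2) of the peaks strong in replicate 1 only, 12.5% (10.8 to 14.3) of those strong in both, 13.5% (8.53 to 19.8) of those strong in neither and 14.2% (12.9 to 15.4) of all optimal peaks. On chromosome IV the shares were 19.6% (15.9 to 23.8) of members, 12.3% (10.4 to 14.5) of the peaks strong in replicate 1 only, 15.4% of those strong in both and 14.97% (13.7 to 16.3) of all. Members on the other chromosomes made up 20.3% on III, 17.7% on I, 16.5% on II and 15.01% on V. On every chromosome, X and IV included, the members' interval overlapped that of all optimal peaks. The members' interval lay below that of the peaks strong in replicate 1 only on X and above it on IV, and overlapped that of the peaks strong in both on each. Within the weaker 50% the X share was 11.3% (8.24 to 14.9) of members and 18.1% (15.4 to 21.2) of the peaks strong in replicate 1 only.

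**Figure D5:**
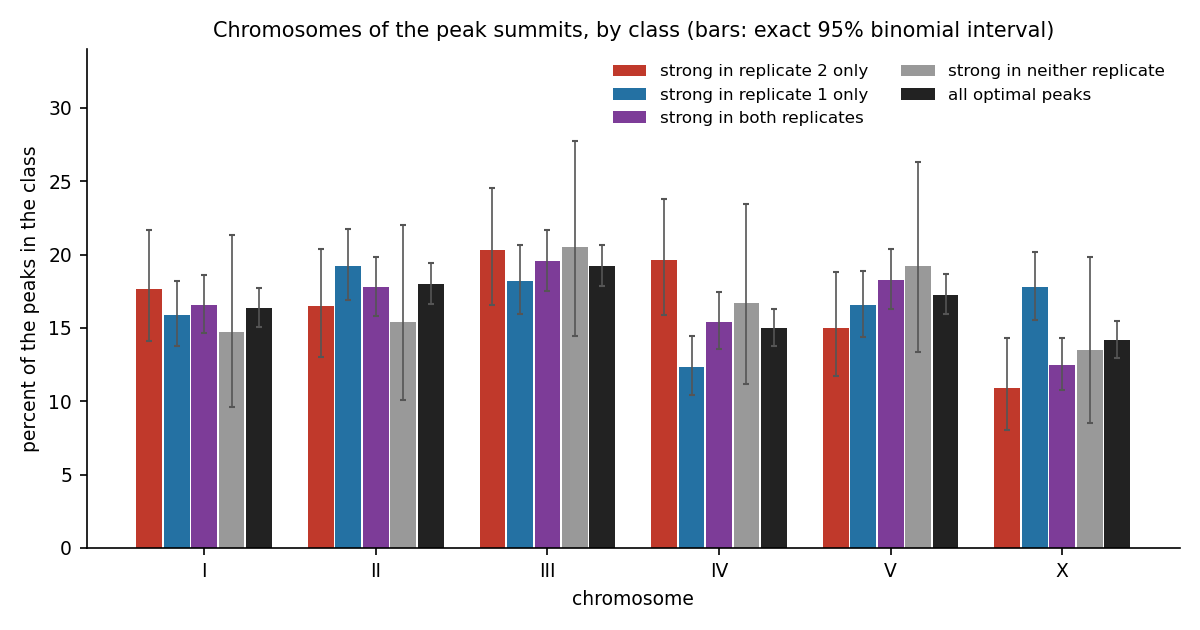
The bars give the percent of peaks in each class (y axis) on each chromosome (x axis), with exact 95% binomial intervals. Members (red) were at 10.9% on X and 19.6% on IV, and the peaks strong in replicate 1 only (blue) at 17.8% and 12.3%.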

How the data were processed

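AMA-1 ChIP-seq regions of 2 replicates, of their pooled reads and of the authors' optimal list were read from deposited narrowPeak lists on ce11. The deposited signal value of a region is the authors' own, on a scale not given in the sources used here, and was used to rank regions within a list. The deposited −log10 q value was only looked at, and the p-value column is empty. The aligner, the caller, the IDR threshold and the depth: not given in the sources used here. Depth per replicate is thus unknown, and intervals cover counting of peaks only. Gene positions came from Ensembl release 115 (WBcel235) and sequences and tRNA products from RefSeq. There were 3052 optimal peaks, which set the rank limit. The 50% splits hold 1526 peaks, and 2 times the limit is 6104. Summits within 200 bp were matched, ties in signal were broken by file order, and gene ends counted within 500 bp. Shares have exact Clopper-Pearson 95% intervals (Python 3.11.15, scipy 1.17.1, pandas 2.3.3). No test between samples was possible with 1 group. Genes were named by rule: the 20 members with the best replicate 2 and the 10 with the best pooled rank, up to 4 members of each gene list at 5′ ends (all where at most 5), the noncoding genes with the 10 best ranks, genes with 3 or more members, those at the rank limits, and ama-1. The members and the gene lists were chosen with earlier results of these data known. The class assignment was tested on simulated lists. Some miRNA results are not reported here.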

Additional observations from a re-analysis of the deposited data

How the results depend on the processing

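The number of members was 413 and stayed between 373 and 535 with a summit distance of 100 or 500 bp, with overlap of regions, with a rank limit of 50% of that used, in the ce10 lists and in the weaker 50% of the optimal peaks, an alternative added after the data were seen. It was 112 with 2 times the rank limit in each replicate, 105 with 2 times the limit in replicate 1 alone, 19 where no replicate 1 region at all was allowed within 200 bp, and 40 in the stronger 50% of the optimal peaks. Leaving out 1 replicate removes its criterion and gave 569 to 1826 peaks. The share of members at a 5′ end was 38.7%, and 21.05% among those 19, 27.6% with a window of 250 bp, 51.3% with 1000 bp and 38.7% to 39.5% without 1 replicate. The share at a 3′ end was 42.6%, and 55% in the stronger optimal peaks, 29.1% with 250 bp, 51.8% with 1000 bp and 36.9% to 39.9% without 1 replicate. The share on X was 10.9%, and 15.8% among the 19, 7.5% in the stronger optimal peaks and 11.6% to 12.1% without 1 replicate. The other alternatives stayed within the 95% interval of each share. At each distance, overlap and rank limit tried, the 3′ share of members (42.03% to 44.7%) was above that of peaks strong in replicate 1 only (26.9% to 30.3%), and the X share (10.1% to 11.6%) below (16.8% to 18.8%). Sequencing depth is unknown, so a rank past the limit cannot be told from lower depth.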
